A study of Bos taurus with 9 samples.

Results

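The H3K27ac peaks of MDBK cells, called from chromatin immunoprecipitation followed by sequencing (ChIP-seq), were compared between a control library and a library of butyrate-treated cells. Members were all peaks of both lists on all chromosomes, 94617 in control and 187475 after butyrate, which made 282092 of the 673926 peaks in the 8 lists of the series. MDBK is an immortal bovine kidney epithelial line (ATCC CCL-22), and its breed is given as Holstein. Treated cells were kept for 24 h in medium with 5 mM butyrate, and control cells received none. Both libraries were made with the same lot of the same rabbit polyclonal antibody to H3K27ac (Abcam ab4729), and each condition had 1 library. The other lists used here for comparison were H3K9ac, H3K9me3 and RNA polymerase II (Pol II), also with 1 library in each condition. Peak lists hold no expression, so the identity of the cells was not checked against marker genes, and gene names were not used here because no gene annotation on the assembly of the lists was used.

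Acetylation of lysine 27 on histone H3 is set by the acetyltransferases CBP and p300 and removed by histone deacetylases, and it marks active promoters and enhancers. Histone acetylation at promoters and enhancers loosens the hold of the nucleosome on DNA and is read by bromodomain proteins that help to start transcription. Butyrate, a short-chain fatty acid that rumen microbes make from fibre, inhibits several histone deacetylases, so that acetyl groups are removed more slowly. A peak is a stretch of genome with more reads than expected from the input DNA, and its length is the extent of that stretch, not the height of the signal.

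Because there was 1 library a condition, no difference below has a replicate check, and no test was run. The 95% intervals treat peaks, pairs or windows as independent, or single bases where a share of bases is taken. They cover counting error only. The libraries of the conditions were sequenced on different lanes, so lane and treatment cannot be told apart. By the study's mapping summary, the butyrate H3K27ac library had more uniquely aligned reads than the control one, whereas for H3K9ac the control library was the deeper. A deeper library can give more and longer peaks, and the part of depth in the results below was not tested.

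The first comparison asked whether H3K27ac peaks present in both conditions became wider. Most of them did: where exactly 1 control peak overlapped exactly 1 butyrate peak by at least 1 bp, median length rose from 317 bp to 443 bp over 43369 such pairs. The median log2 ratio of butyrate to control length was 0.27 (95% interval, 0.26 to 0.28), with quartiles of -0.17 and 0.91. The butyrate peak was the longer in 64.5% of pairs (Wilson interval, 64.1% to 65.0%), the shorter in 33.8% and equal in 1.68%. Butyrate length was at least 2 times the control length in 22.7% of pairs (9829) and at most 1/2 of it in 5.11% (2216). No peak was shorter than 199 bp, so pairs with control peaks under 2 times that length could not reach 1/2. The median control length of 317 bp lies below that limit, so most pairs could not be halved. The shares of doubled and halved pairs are therefore not on equal terms. By direction alone, widening was the more frequent change, but many peaks narrowed. Direction is touched by the same floor, since a control peak of 199 bp cannot become shorter. Without peaks of that length 62.8% of pairs were longer, and with only peaks of at least 500 bp 55.6% were. The size of the ratio depended on which peaks were counted, since it was 0.0643 with only peaks of at least 500 bp and 0.67 when peaks less than 1 kb apart were joined.

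Widening was found at short control peaks. Pairs whose control peak had the shortest length in the lists, 199 bp, had a median log2 ratio of 0.97 (n = 4795), which is partly fixed in advance because a peak of that length cannot be shorter after treatment. For control lengths of 200 to 300 bp the median was 0.63 (n = 15003), and for 300 to 500 bp it was 0.15 (n = 13155). The sign changed above 500 bp, with -0.16 for 500 to 1000 bp (n = 8595), -0.25 for 1000 to 2000 bp (n = 1726) and -0.17 for 2000 bp or more (n = 95). Only 24.7% of the pairs with control lengths between 1000 and 2000 bp were longer after butyrate. These pairs hold a minority of the long control peaks, 1726 of 4025 at 1000 to 2000 bp and 95 of 570 at 2000 bp or more, and the others, which met several peaks or none, are not in these medians.

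This order depended on which condition set the classes. When the same pairs were classed by butyrate length, the medians ran the other way, from -0.40 at the shortest length through 0.31 at 300 to 500 bp to 1.35 at 1000 to 2000 bp. Each classing uses a length that also stands in the ratio. Classed by the geometric mean of both lengths, which favours neither list, the median was 0.12 at 200 to 300 bp, 0.51 at 300 to 500 bp, 0.30 at 500 to 1000 bp, 0.00 (-0.01 to 0.03) at 1000 to 2000 bp and -0.05 (-0.10 to 0.00) at 2000 bp or more. The rise in length was thus found at short and intermediate peaks under this symmetric view too, and in both classes of 1000 bp or more the interval included 0.

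**Figure D1:**
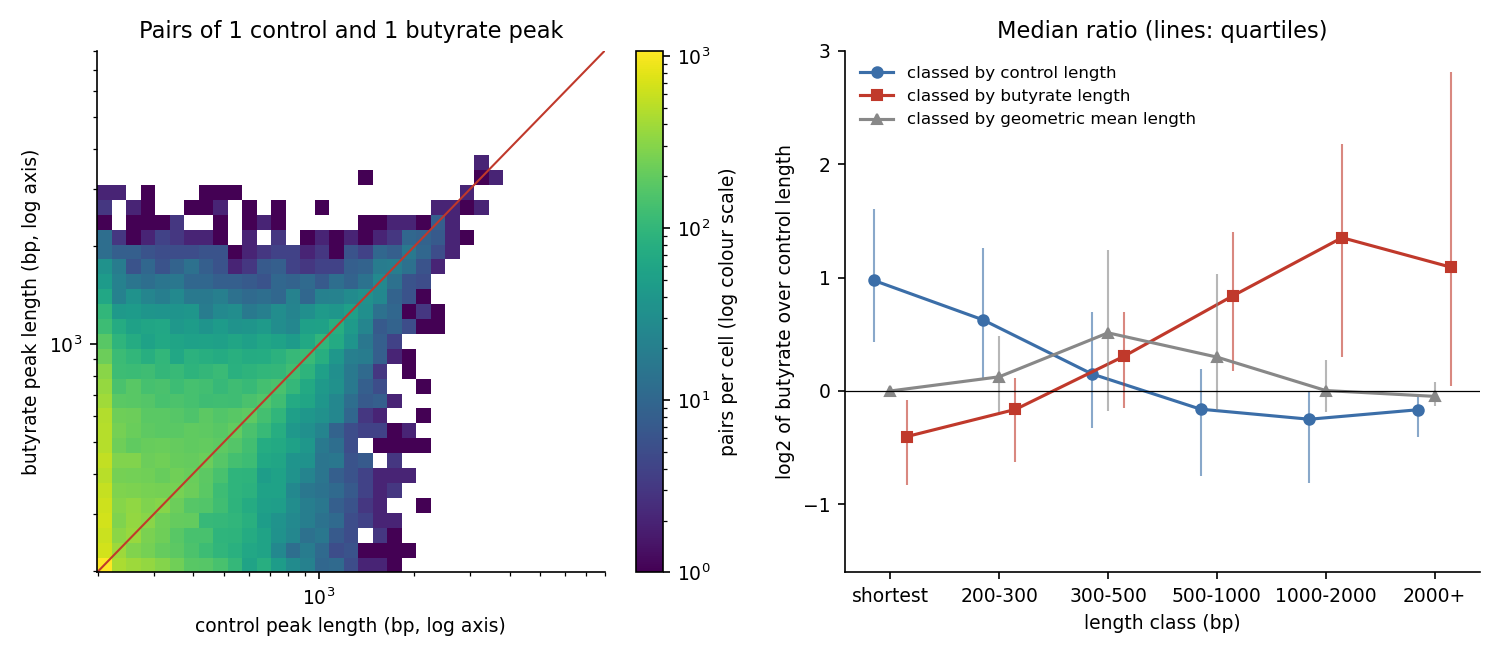
Left, control against butyrate length in bp (log axes) of the 43369 pairs, with colour for the number of pairs per cell and a red line of equal length; most pairs lie above the line at short control lengths. Right, median log2 of butyrate over control length with quartiles as vertical lines, by length class in bp, for classes set by control length (falling from 0.97 to -0.17), by butyrate length (rising from -0.40 to 1.09) and by the geometric mean of both (highest at 0.51).

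Both edges of the pairs moved by like amounts. The left edge lay 17 bp and the right edge 20 bp further out at the median. The butyrate peak contained the whole control peak in 39.5% of pairs, lay inside it in 18.04%, and was displaced, with one edge further out and the other further in, in 41.4%. For control peaks at the shortest length both edges moved out, by 87 bp and 90 bp, and for control peaks of 2000 bp or more both moved in, by medians of -75 bp and -54 bp.

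Examples show how far single peaks moved. Positions are on assembly UMD3.1 and were chosen by the size of the change. The largest widening was at chr7:24379300-24382361, where a control peak of 239 bp became a butyrate peak of 3062 bp, and where H3K9ac had no control peak and 4 butyrate peaks. On chromosome 28, at chr28:18160829-18163808, a control peak of 211 bp became one of 2980 bp, and at chr15:31526460-31529400 one of 199 bp became one of 2941 bp. H3K9ac did not rise at these sites, with 2 peaks in each condition on chromosome 28 and a fall from 4 to 2 on chromosome 15. The largest narrowing was within chr11:6767174-6769490, from 2203 bp to 314 bp. A control peak of 2023 bp at chr11:68383525-68385547 narrowed to 401 bp, and one of 1800 bp at chr21:44911702-44913501 narrowed to 199 bp. At all 3 of these narrowed sites H3K9ac fell from 2 or 3 control peaks to 0 butyrate peaks, so peaks of both acetyl marks no longer covered most of these sites.

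The mark at lysine 9 of histone H3, H3K9ac, divided the pairs by how they changed. Pairs that met an H3K9ac peak only after butyrate had the largest widening, from 252 bp to 522 bp (median log2 ratio, 0.88; n = 7686). Pairs with H3K9ac in both conditions went from 434 bp to 627 bp (0.30; n = 13496), and pairs with H3K9ac in neither went from 262 bp to 329 bp (0.22; n = 12868). Pairs that met H3K9ac in control only were slightly narrower, 393 bp in control and 375 bp after butyrate (-0.06, with an interval of -0.08 to -0.05; n = 9319). A longer peak is more likely to meet another peak, so the class is not independent of length, and the values were also taken within classes of control length.

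Within control lengths of 300 to 500 bp, the median log2 ratio was -0.09 with H3K9ac in neither condition, -0.10 with H3K9ac in control only, 0.55 after butyrate only and 0.42 in both. Within 500 to 1000 bp the same order of classes gave -0.70, -0.51, 0.10 and 0.04. Within 1000 to 2000 bp, pairs with H3K9ac in both conditions stayed near their control length (-0.11; n = 1238), whereas those with H3K9ac in control only (-0.96; n = 434) or in neither (-1.72; n = 48) were much narrower. Only 6 pairs of this length met H3K9ac after butyrate alone (-0.90). Long H3K27ac peaks were thus nearest to their control length where H3K9ac was called in both conditions. H3K9ac after butyrate was counted where it met the butyrate peak, and a longer butyrate peak can meet more of it within a class of control length too. Presence of Pol II, the enzyme that transcribes genes, separated the pairs less, with 0.34 where a Pol II peak was met after butyrate (n = 6982) and 0.26 where none was (n = 36387).

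Widening was not shared by H3K9ac itself. Its own 1-to-1 pairs had a median of 348 bp in control and 322 bp after butyrate (log2 ratio, -0.09; 95% interval, -0.10 to -0.08; n = 29454), and only 41.9% were longer. Pairs of Pol II had a log2 ratio of 0.03 (n = 2505) and pairs of H3K9me3, a mark of silent chromatin, one of 0.17 (n = 3914). At 10429 sites where both acetyl marks formed a pair, H3K27ac went from 421 bp to 580 bp and H3K9ac from 410 bp to 338 bp. At these sites H3K27ac was longer and H3K9ac shorter in 36.8%, both were longer in 27.9%, both shorter in 24.2%, and the reverse combination held in 7.34%. Read depth differed in opposite directions for these marks, and its part in this difference was not tested. Although its pairs were shorter, the H3K9ac list grew in number from 74125 to 115114 peaks.

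**Figure D2:**
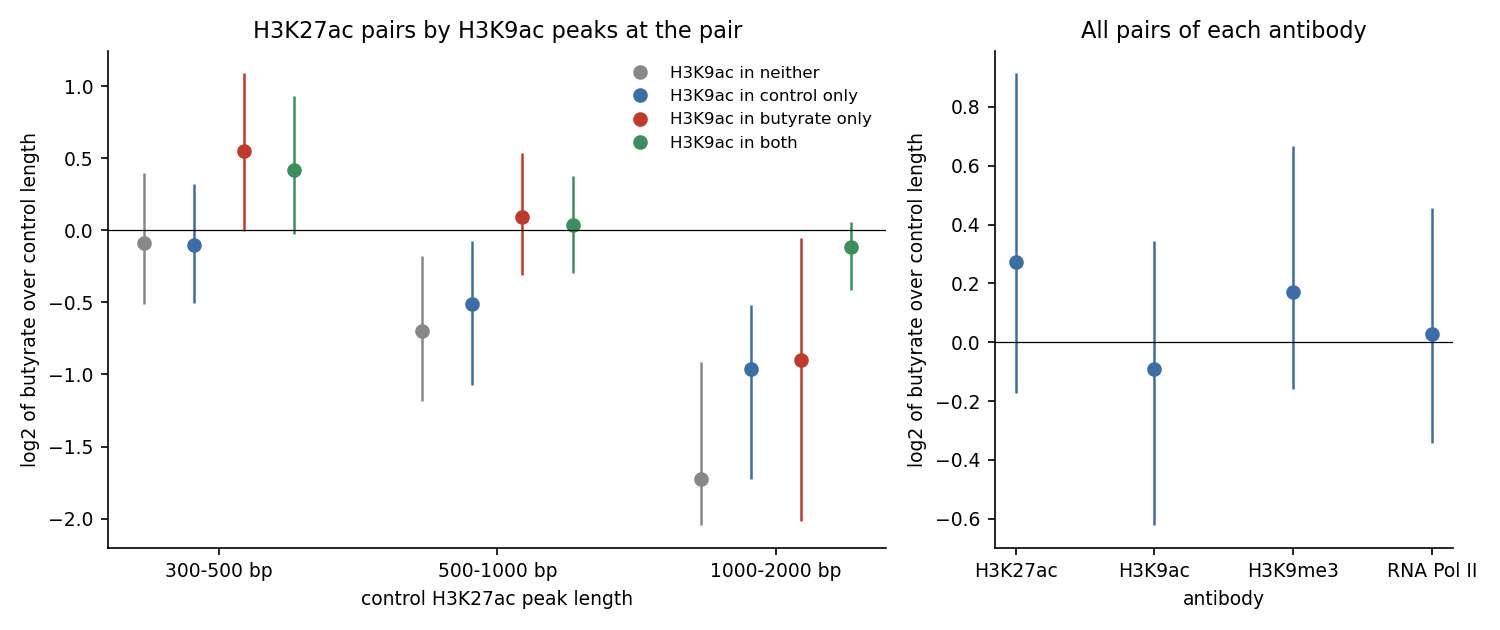
Median log2 of butyrate over control length (points) with quartiles (lines). Left, H3K27ac pairs in 3 classes of control length, by whether an H3K9ac peak was met in neither condition, in control only, after butyrate only or in both; for lengths of 500 to 1000 bp the medians are -0.70, -0.51, 0.10 and 0.04. Right, all pairs of each antibody; H3K27ac lies highest at 0.27 and H3K9ac lowest at -0.09.

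Peaks also fused and split. Joining all overlapping peaks of both lists, 5305 regions held 2 or more control peaks under 1 butyrate peak, and these regions took in 11334 control peaks. The opposite case, 1 control peak with 2 or more butyrate peaks, occurred in 3815 regions. Fused regions grew in covered bases (log2 ratio of butyrate to control bases, 0.46), whereas split regions lost a little (-0.10). The butyrate peak over the most control peaks, 7 of them, lay at chr5:19953094-19958428 and was 5335 bp long, where the control peaks covered 3346 bp. A control peak of 7169 bp at chr19:11022539-11029707 was met by 8 butyrate peaks that covered 5451 bp. The distance between neighbouring peaks of a list shrank as well, from a median of 1826 bp in control to 976 bp after butyrate, and the share of gaps under 1 kb rose from 42.0% to 50.5%.

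Which control peaks were kept depended strongly on their length. The share of control peaks met by any butyrate peak was 43.7% at the shortest length, 56.2% at 200 to 300 bp, 72.4% at 300 to 500 bp, 89.2% at 500 to 1000 bp, 98.1% at 1000 to 2000 bp and 99.5% at 2000 bp or more. It was 85.2% for the 43050 control peaks that met a control H3K9ac peak and 49.7% for the 51567 that did not. The 32283 control peaks met by no butyrate peak had a median length of 238 bp. Nearly all long control peaks were thus still met by a butyrate peak, including pairs that were narrower. An overlap of 1 bp was enough to count, so this does not mean that most of a control peak stayed covered. A longer peak also meets another more easily, and the part of this in these shares was not tested.

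Widening added less sequence than new peaks did. Butyrate peaks covered 58.2 Mb that control peaks did not, and of this 45.2 Mb (77.7%) lay in gained peaks, which overlap no control peak, and 12.95 Mb (22.3%) lay beside control peaks in peaks that overlap them. In the other direction 15.1 Mb of control sequence was no longer covered, 9.02 Mb of it in lost peaks and 6.09 Mb at peaks that were retained. The bases covered in both conditions came to 22.8 Mb, which is 60.2% of the control bases, and the net rise was 43.1 Mb.

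The next comparison asked where the gained peaks lay in relation to control peaks. They gathered beside them. Of 126830 gained peaks, 15.7% lay within 500 bp of the nearest control peak edge, 26.1% within 1 kb, 61.1% (Wilson interval, 60.8% to 61.3%) within 5 kb and 89.2% within 20 kb. These zones made up 2.61%, 4.52%, 15.04% and 34.5% of the sequence outside control peaks, so gained peaks were packed far more densely near control peaks than far from them. The number of gained peaks per Mb fell at every step of distance, from 291 within 500 bp through 140 at 2 to 5 kb and 23.3 at 20 to 50 kb to 0.42 beyond 500 kb. With only peaks of at least 500 bp in both lists, which left 19421 in control and 48328 after butyrate, 26.6% of gained peaks lay within 5 kb. The zone within 5 kb is smaller with fewer control peaks, and its share of the sequence was not taken. Butyrate peaks that overlap only shorter control peaks also count as gained there. This value therefore does not show whether long gained peaks were packed less densely near control peaks.

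The share of bases covered by butyrate H3K27ac peaks showed the same decline. It was 33.4% in the first 100 bp outside a control peak, 16.4% between 401 and 500 bp, 11.1% between 901 and 1000 bp, 7.53% between 1901 and 2000 bp and 4.08% between 4901 and 5000 bp. By zone it fell from 24.0% within 500 bp to 5.51% at 2 to 5 kb, 0.78% at 20 to 50 kb and 0.013% beyond 500 kb. The decline had no step at which coverage stopped, and it continued over the whole range measured.

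Control H3K27ac peaks around butyrate peaks gave much lower values. They covered 6.67% of the first 500 bp outside butyrate peaks and 0.60% at 2 to 5 kb, against 24.0% and 5.51% for butyrate peaks around control peaks. The lists differ in total covered bases, 81.0 Mb after butyrate and 37.9 Mb in control, and the part of this in the difference was not tested. A decline with distance was seen in both directions.

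Around the same control H3K27ac peaks, H3K9ac covered 8.53% of the first 500 bp in control and 9.30% after butyrate. At 2 to 5 kb these values were 0.77% and 2.48%, and at 20 to 50 kb they were 0.11% and 0.58%. The butyrate H3K9ac peaks thus covered about the same share of bases as in control within 500 bp outside the H3K27ac peaks, and a larger share further out. H3K9me3 after butyrate showed no such decline over these distances, with 1.08% within 500 bp, 1.199% at 2 to 5 kb and 1.04% at 20 to 50 kb.

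Up to 50 kb out, gained peaks were slightly shorter with distance and met peaks of H3K9ac and Pol II less often. Their median length was 300 bp within 2 kb of control peaks, 294 bp at 2 to 5 kb and 274 bp at 20 to 50 kb. The share that met a butyrate H3K9ac peak was 31.1% within 500 bp, 26.8% at 2 to 5 kb and 23.3% at 20 to 50 kb. This fall was small beside that of all bases covered by butyrate H3K9ac, from 9.30% within 500 bp to 0.58% at 20 to 50 kb. A control H3K9ac peak was met by 22.9% of gained peaks within 500 bp and by 6.15% at 20 to 50 kb. A Pol II peak after butyrate was met by 6.29% of those within 500 bp and by 4.04% of those at 20 to 50 kb. The gained peak farthest from any control peak lay at chr22:25377333-25377531, 2117 kb away. It had the shortest length in the list, 199 bp. Only 100 gained peaks lay beyond 500 kb.

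Coverage beside a control peak was also taken by the kind of control peak. Retained control peaks had 27.1% of their flanks of 1000 bp covered after butyrate, and lost ones had 7.46%. Control peaks that met control H3K9ac had 24.3%, and those without it 17.6%. By control length the values ranged from 17.4% at the shortest length through 23.2% at 500 to 1000 bp to 19.0% at 2000 bp or more. The flank of a retained peak includes the part of the overlapping butyrate peak that reaches past it, so its value is raised by the way it was chosen. Further out, from 1 to 5 kb, retained and lost control peaks lay closer together, at 8.74% and 6.60%, and values by control length ran from 9.34% to 13.3%. Those by length all exceed the 8.89% at 1 to 2 kb and 5.51% at 2 to 5 kb from any control peak. The flanks of one kind thus take in sequence nearer to control peaks of other kinds, so the kinds are not separate here. Lost control peaks were themselves close to butyrate peaks, with a median distance of 1.05 kb and 73.3% within 5 kb. Most control peaks that were not retained thus had a butyrate peak in their vicinity.

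**Figure D3:**
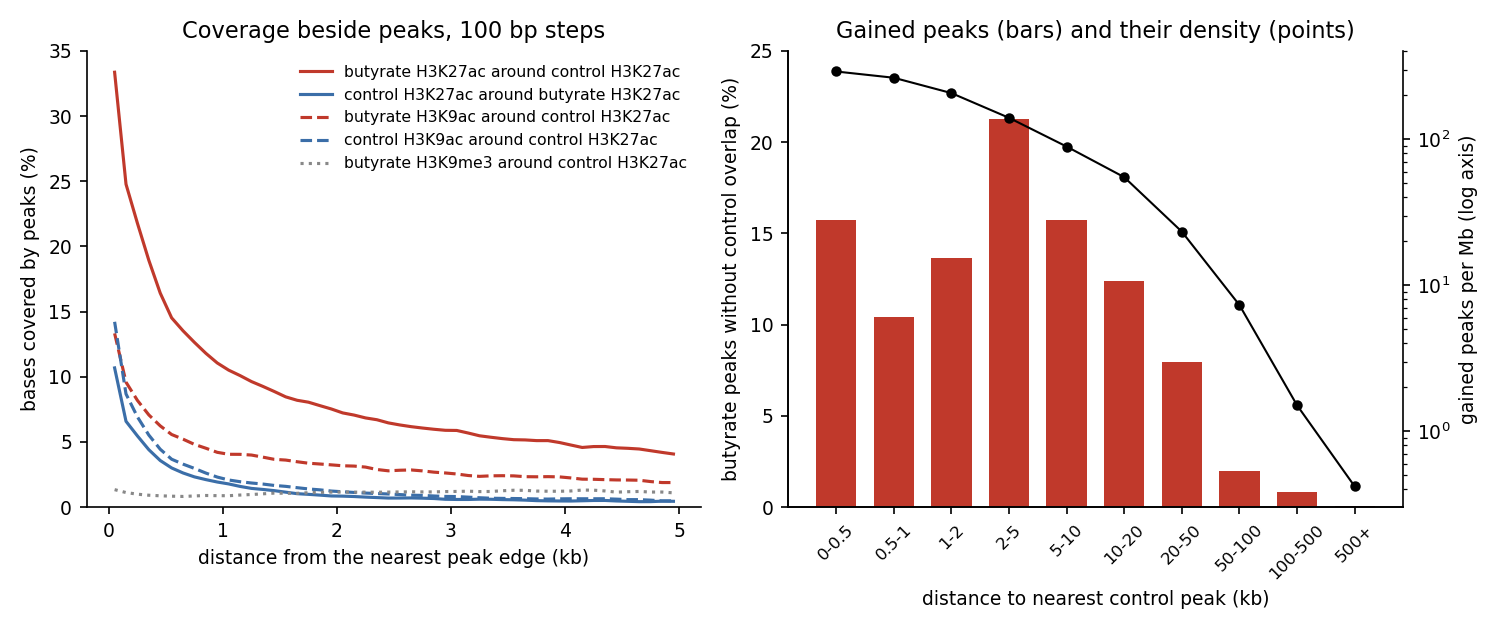
Left, percent of bases covered by peaks in steps of 100 bp from 0 to 5 kb outside peak edges; butyrate H3K27ac around control H3K27ac falls from 33.4% to 4.08%, above each other line. Right, percent of the 126830 gained peaks by distance to the nearest control peak in kb (bars, left axis) and gained peaks per Mb (points, right axis, log), which fall from 291 to 0.42.

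The last comparison asked whether the change depended on how many control peaks a region already held. The 30 nuclear chromosomes were cut into 26614 windows of 100 kb, of which 15410 had a peak in either list. Butyrate peaks were more numerous than control peaks in 10826 windows, fewer in 3362 and equal in number in 12426, most of which were empty in both. Covered bases were at least 2 times higher in 52.9% of the 15410 windows and at most 1/2 in 13.1%. The control and butyrate peak numbers ranked windows in nearly the same order (Spearman coefficient over windows, 0.88, a description over windows that share libraries).

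In absolute numbers, and with all peaks counted, windows that already held many peaks gained the most. In windows with over 20 control peaks the log2 ratio of peak number was below 0 under 4 of the other settings tried. It was -0.0557 with peaks of at least 500 bp, with an interval (-0.25 to 0.14) that includes 0. With peaks less than 1 kb apart joined it was -0.41 (-0.76 to -0.06), where joining merged 2.02 butyrate and 1.72 control peaks on average. In both of these settings the class was set again on the filtered or joined control list. Its windows are therefore not the 799 of the reported setting, and they were not counted. The dense ratio was -0.24 with the longest and -0.12 with the first-listed butyrate peaks, as many as in control. These 2 cut lists allow no rise in total peak number. Windows without a control peak gained 0.36 peaks each, those with 1 or 2 gained 2.098, those with 3 to 5 gained 5.37, those with 6 to 10 gained 8.89, those with 11 to 20 gained 11.8 and those with over 20 gained 12.7. Windows without a control peak were 12880 of the 26614 yet held only 3.49% of the net rise in covered bases. Of these windows, 87.1% had no butyrate peak either. With only peaks of at least 500 bp counted, windows without such a control peak held 35.7%. That set is not the same, since its windows can hold shorter control peaks. With all peaks counted, the largest parts of the net rise fell in windows with 6 to 10 control peaks (26.9%) and with 11 to 20 (29.8%). The 799 windows with over 20 took 12.95%.

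Relative to what was there, the rise was smaller in dense windows. The log2 ratio of butyrate to control peak number was 1.34 (1.29 to 1.38) in the 4632 windows with 1 or 2 control peaks, then 1.25, 1.11 and 0.87, and 0.53 (0.51 to 0.55) in windows with over 20. The share of windows with covered bases at least 2 times higher did not follow this order at the sparse end. It was 43.9% with 1 or 2 control peaks, 52.3% with 3 to 5, 52.5% with 6 to 10, 46.3% with 11 to 20 and 28.7% with over 20, against 52.9% of all windows. Likewise only 48.9% of windows with 1 or 2 control peaks had more butyrate than control peaks, while in the denser classes this share lay between 70.7% and 79.3%. Of windows with 1 or 2 control peaks, 34.5% had at most 1/2 of their covered bases left. This compares with 13.1% of all windows and 2.63% of the densest class. With so few control peaks, the loss of 1 can halve a window, so these shares are not on equal terms. In windows with 1 or 2 peaks by the butyrate number, the share was 9.53%, and by the mean of both numbers 38.8%.

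Control peaks both set these classes and stand in the ratio. Classes set by control H3K9ac peaks, from another library, gave 1.09 (1.04 to 1.14) in the 15024 windows without an H3K9ac peak, 1.31 (1.28 to 1.34) in those with 1 or 2, and then a decline to 0.50 in those with over 20. Classes set by butyrate H3K27ac peaks gave the opposite order, from 0.27 to 1.21. Classes set by the mean of the control and butyrate numbers rose from 0.26 at a mean of 1 to 2 to 1.06 at 11 to 20 and 1.05 at over 20. The decline from windows with 1 or 2 peaks to those with over 20 was thus seen when either control mark set the classes, although the windows without H3K9ac lay below those with 1 or 2 H3K9ac peaks. It was not seen in classes set by the mean of both numbers. Butyrate peaks were 187475 against 94617 in control, so that mean follows the butyrate number more. The butyrate number also stands in the ratio, so this mean is not a neutral view and does not decide the question. The ratios for sparse windows also depended on how many butyrate peaks were counted, since with the butyrate list cut to its 94617 longest peaks the log2 ratio was 0.0384 in windows with 1 or 2 control peaks and -0.24 in those with over 20. In windows of 500 kb, those with 1 or 2 control peaks had a ratio of 0.92 and those with over 20 had 0.93. The class limits per window were not scaled to the larger size. They stand for lower peak densities there, so these ratios do not bear on the contrast in 100 kb windows.

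H3K9ac peaks over the same classes of control H3K27ac rose even more unevenly, with a log2 ratio of 1.55 in windows with 1 or 2 H3K27ac peaks, 0.73 in those with 6 to 10 and -0.03 in those with over 20. In the densest windows, H3K27ac peaks were thus more numerous after butyrate while H3K9ac peaks were not. Windows that lacked a control peak took more butyrate peaks when their neighbours were marked. A butyrate peak was found in 4.29% of such windows whose adjoining windows were also empty in control, in 14.1% where these held 1 or 2 control peaks and in 43.2% where they held over 10.

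**Figure D4:**
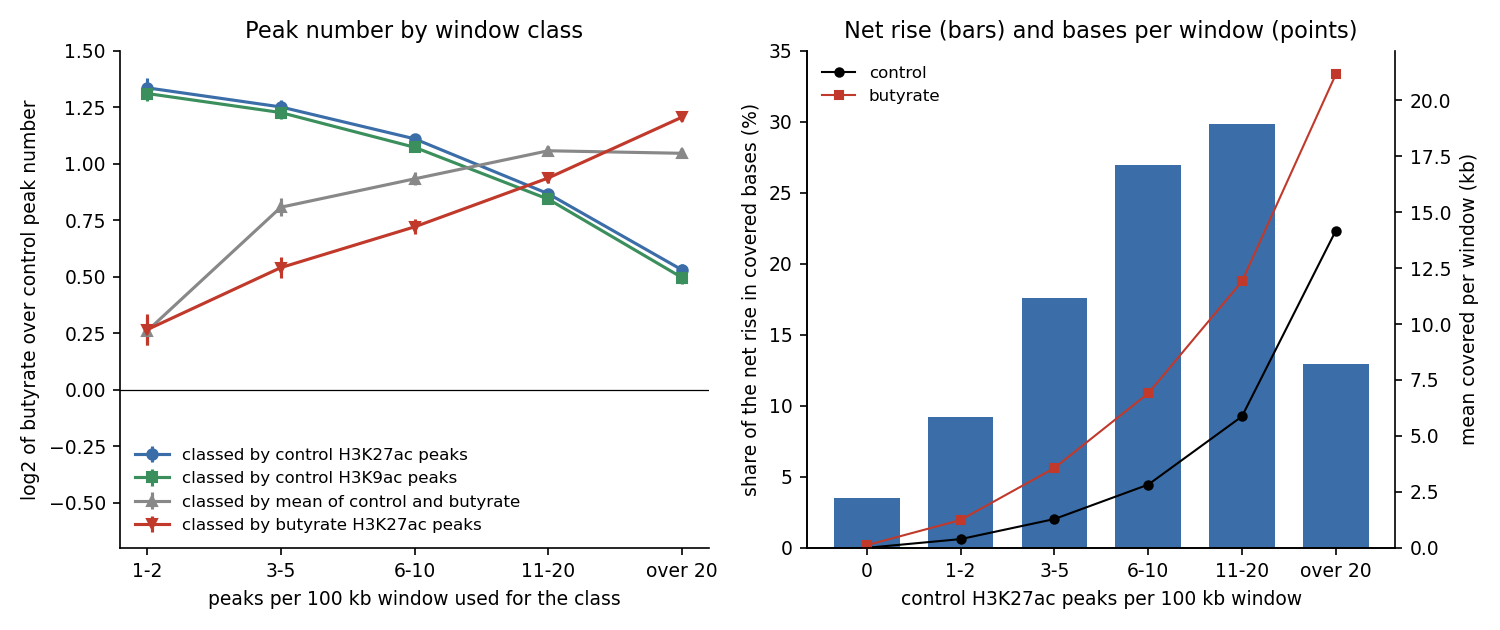
Left, log2 of butyrate over control H3K27ac peak number in 100 kb windows (bars, 95% counting interval) by peaks per window from 1 up, with classes set by control H3K27ac (1.34 to 0.53), control H3K9ac (1.31 to 0.50), the mean of control and butyrate (0.26 to 1.05) or butyrate H3K27ac (0.27 to 1.21). Right, percent of the net rise in covered bases per class of control peaks (bars, left axis) and mean covered kb per window (points, right axis); butyrate lies above control in each class.

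Single windows show both directions. The largest rise in covered bases was at chr1:21600001-21700000, from 11.8 kb in 31 control peaks to 58.2 kb in 90 butyrate peaks, and H3K9ac there went from 21 to 60 peaks. The 2 windows next in size adjoin each other at chr1:96000001-96200000, with 29 and 26 control peaks and 77 and 88 butyrate peaks. The largest fall was at chr2:36200001-36300000, from 46.9 kb in 60 peaks to 24.5 kb in 41, where H3K9ac went from 56 peaks to 21. At chr10:29900001-30000000 covered bases went from 26.3 kb to 5.92 kb and at chr16:46000001-46100000 from 40.6 kb to 21.5 kb, and H3K9ac peaks fell there from 42 to 8 and from 53 to 13. Among windows without a control peak, the most butyrate bases were in chr7:51800001-51900000, with 38 peaks and 16.6 kb. In these extreme windows both acetyl marks moved in the same direction.

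Chromosomes behaved alike with a few exceptions. The median log2 length ratio of pairs was above 0 on 29 of 30 nuclear chromosomes, up to 0.35 on chromosome 9. The X chromosome, with -0.06 (-0.12 to 0.00; n = 590), was the exception. Its pairs were longer after butyrate in 44.6%, the lowest share of the 30, and the highest was 69.0% on chromosome 22. The X chromosome kept 47.0% of its control peaks, against 62.6% to 70.2% on the 29 autosomes, and 41.8% of its gained peaks lay within 5 kb of a control peak, against 52.6% to 70.1%. Its 27 windows with over 10 control peaks held 448 control peaks and 433 butyrate peaks (log2 ratio, -0.05; -0.24 to 0.14), whereas on autosomes this class ran from 0.63 to 0.90. The dense regions of the X chromosome thus showed no rise that could be detected with these counts.

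Chromosomes 5 and 14 stood apart in their sparse windows. The log2 ratio in windows with 1 or 2 control peaks was 0.29 on chromosome 5 and 0.26 on chromosome 14, below the 0.70 and 0.64 of their windows with over 10, while on the other 27 autosomes it lay between 1.06 and 1.93. Over the nuclear chromosomes, sparse windows had the higher ratio on 28 of 30 chromosomes. The control lists of the other antibodies were also dense on these chromosomes, with 34.7 and 31.5 control H3K9me3 peaks per Mb, where no other autosome exceeded 14.3, and 57.2 and 53.8 control Pol II peaks per Mb, where no other exceeded 28.1. The part of this in the low ratios was not tested. Without chromosomes 5 and 14 the ratio in sparse windows was 1.42. The mitochondrial genome, which has no histones, held 14 control and 10 butyrate peaks and is in none of the windows.

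**Figure D5:**
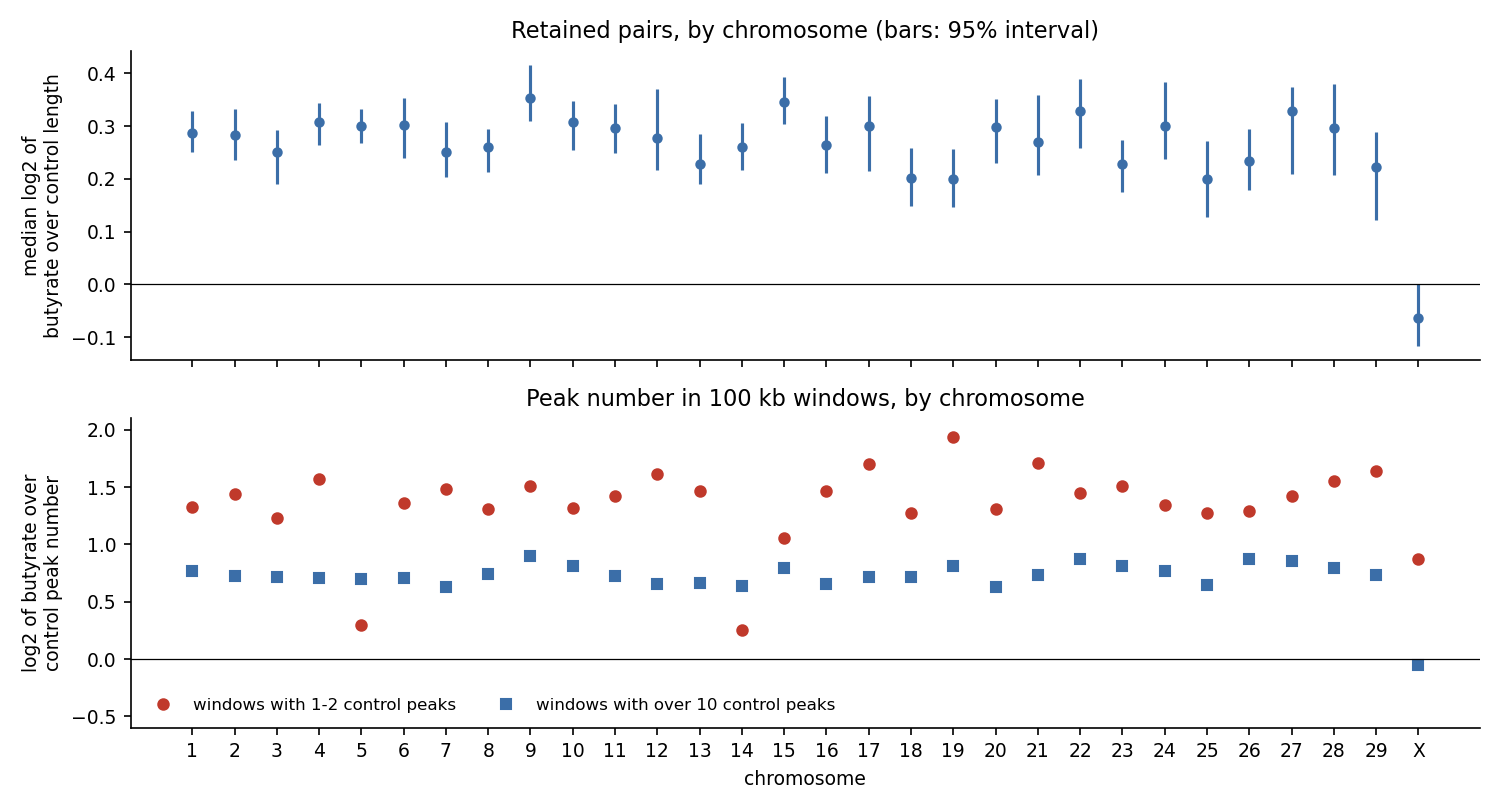
Top, median log2 of butyrate over control length of H3K27ac pairs on each nuclear chromosome with its 95% interval; the X chromosome is the only one below 0, at -0.06. Bottom, log2 of butyrate over control peak number in 100 kb windows with 1 or 2 and with over 10 control peaks; the sparse class is the lower on chromosomes 5 and 14 only.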

How the data were processed

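The submitters' processing notes name Trim Galore 0.4.1, BWA, MACS2 and the build UMD3.1. By the study's methods, the authors aligned reads with BWA, kept uniquely placed reads with few mismatches and called peaks per library with MACS2 against the MDBK input. The deposited files give chromosome, start and end in bp, with no score, and the input was not analysed here. The first base was taken as 0, printed starts are 1 higher than in the files, and lengths are 1 bp too short if the files count from 1. Rows are ordered in a way that is not documented, with peak length falling along them.

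Distances run between peak edges. A peak belongs to the window of its midpoint, and bases are counted where they lie. Medians have order-statistic intervals, shares Wilson intervals and peak number ratios exact binomial intervals, all at 95%. The span of the genome was taken as the last peak end of each chromosome in any list (2659.93 Mb). Named regions were the 3 pairs with the largest increase and decrease in length and the 3 fused, split, risen, fallen and control-free regions first in rank, of which some are described, plus the farthest gained peak. The members, classes and rules were chosen with earlier results of these data known. Read depth is in the study's mapping summary and was not used in any calculation. The gene table given was of another assembly and was not used. The interval procedures were tested on simulated data. Calculations were done in Python 3.11.15 with pandas 2.3.3, scipy 1.17.1 and numpy 2.4.6, and plots in matplotlib 3.10.9.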

Additional observations from a re-analysis of the deposited data

Results flagged for a closer look

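Retained H3K9ac peaks changed length in the direction opposite to H3K27ac. The median log2 ratio of butyrate to control length was -0.09 (-0.0913) over 29454 H3K9ac pairs and 0.27 over 43369 H3K27ac pairs. With 1 library per antibody and condition, this difference was not tested.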

How the results depend on the processing

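No paired analysis was possible because neither condition had more than 1 library, and no replicate could be left out. In all, 74 values were recomputed for the 8 results, of which 13 stayed within the counting interval of the reported value, 55 moved outside it and 6 changed sign. The causes of these changes were not tested. In the list that follows, the fourth and last results are shares of bases. Their intervals count single bases, at 19.27% to 19.29% and 3.482% to 3.493%. Neighbouring bases are not independent, so even very small changes count as moved there. Values follow in a fixed order: the median log2 length ratio of pairs, the percent of pairs longer after butyrate, the percent of gained peaks within 5 kb, the percent of bases within 1 kb of control peaks covered by butyrate peaks (19.3% as the reported setting), the log2 peak number ratios in sparse (1 or 2 control peaks) and dense windows (over 20), the percent of windows with covered bases at least 2 times higher, and the percent of the net rise in windows without control peaks. Keeping peaks of at least 500 bp gave 0.0643, 55.6%, 26.6%, 17.2%, 1.53, -0.0557, 65.3% and 35.7%. Leaving out the shortest peaks gave 0.23, 62.8%, 56.1%, 20.2%, 1.68, 0.52, 57.6% and 4.79%. Joining peaks less than 1 kb apart gave 0.67, 72.5%, 45.8%, 28.0%, 0.95, -0.41, 54.0% and 3.13%. Keeping the longest butyrate peaks, as many as in control, gave 0.57, 74.5%, 64.3%, 14.9%, 0.0384, -0.24, 34.7% and 3.76%. Keeping the first butyrate peaks of the list in its order, a choice made after seeing the data, gave 0.29, 64.5%, 65.8%, 12.8%, -0.0579, -0.12, 26.9% and 4.86%. The sparse ratio stayed above the dense one in these 5 settings, but a rise in peak number in dense windows was not kept in 4 of them. In 2 of these 4 the butyrate list was cut to the control number, which allows no rise in total. With peaks of at least 500 bp the interval of the dense ratio included 0. With that limit, without the shortest peaks and with joining, windows were classed again on the changed control list. Their sparse and dense windows are therefore not those of the reported setting. Autosomes alone moved the third result to 61.4%, the fourth to 19.4% and the last to 3.25%. An overlap of at least 50% moved the first 3 to 0.36, 69.8% and 65.9%, and does not bear on the fourth. Distance between midpoints gave 59.5% within 5 kb. Windows of 50 kb gave 1.39, 0.20, 54.3% and 8.84% for the last 4 results. Windows of 500 kb gave 0.92 with 1 or 2 control peaks, 0.93 with over 20 and 0.28% for the net rise. The limits of 1 or 2 and over 20 peaks per window were kept at each size. They stand for other densities at 50 kb and 500 kb, so the classes are unlike those of 100 kb windows. Windows shifted by 50 kb gave 3.50% for the last. Classes set by control H3K9ac gave 0.50 for dense windows and 4.70% for the last. Classes set by butyrate peaks gave 0.27, 1.21 and -1.17%. Added after seeing the data, classes set by the mean of both conditions gave 0.26 and 1.05, and leaving out chromosomes 5 and 14 gave 1.42 in sparse windows. Depth, lane and treatment cannot be told apart in these lists, and no peak height was available to set an equal threshold.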
